A study of Mus musculus with 89 samples.

Results

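Mouse embryonic stem cells (ESCs) were compared with and without the orphan nuclear receptor Nr5a2 in FCS/LIF (serum-containing medium with the cytokine LIF). A small group of genes, led in fold change by Lctl, Inhbb and Dpp4, was lower in the Nr5a2-null cells. Another, led by H19, Aass and Mest, was higher. None of the listed pluripotency genes passed the main test, although Tbx3 passed under some other settings. The comparison rests on 4 RNA-seq libraries, 2 of Nr5a2-null cells (−N) and 2 of control cells (+E+N), chosen by their labels from 20 RNA-seq libraries and 89 samples in all. The other RNA-seq libraries were from the same cells without Esrrb or in 2i/LIF (a medium with inhibitors of Mek and Gsk3). Each difference was set beside them. Those of FCS/LIF also entered the fit behind the calls and its estimate of the spread, so they are not independent of the calls. The 69 ChIP-seq samples of the series were not analysed here.

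All the cells were EKOiE ESCs, which lack endogenous Esrrb and make Esrrb from a transgene induced by doxycycline (Dox). The +E+N cells carried intact Nr5a2 and were kept in 1 µg/ml Dox. The −N cells were kept in the same Dox and had Nr5a2 disrupted at both alleles, in the exon that encodes the first part of the DNA-binding domain. The −E and −E−N states were the same respective lines 2 days after Dox was withdrawn. The −N and −E−N libraries came from cells expanded from single sorted cells after the disruption, of a clone that the labels do not give, so that the loss of Nr5a2 and any other difference between the lines cannot be told apart. The study describes the replicates as independent experiments, and the labels do not say what separates them.

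Nr5a2 (also called LRH-1) binds DNA as a monomer through zinc fingers and an extension that reads bases in front of the nuclear receptor half-site. The study reports that it prefers the form TCAAGGCCA. Esrrb belongs to another branch of the nuclear receptor family and recognises nearly the same letters, with a reported preference for TCAAGGTCA. In ESCs both bind near genes of the pluripotency network, and in adult tissues Nr5a2 controls bile acid and steroid synthesis.

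The targeted exon is shown because its disruption defines the −N cells. It is exon 4 of 9 in transcript Nr5a2-205 (mm10, minus strand, chr1:136944959-136945077), all of its 119 bases are coding, and capitals mark its 4 in-frame cysteine codons, the residues that hold zinc in a finger of this kind.

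Nr5a2 exon 4: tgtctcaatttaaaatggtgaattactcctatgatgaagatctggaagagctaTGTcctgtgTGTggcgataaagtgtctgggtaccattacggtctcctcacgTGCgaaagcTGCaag

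The level of Nr5a2 (chr1:136842571-136960448) was given per gene and not per exon, so it does not test the disruption itself. In CPM (counts per 1000000 counts of the library, after TMM scaling), the gene read 41.0 and 37.1 in the control libraries and 27.5 and 26.0 in the −N libraries, groups that did not overlap. The difference, 1.46-fold (log2 −0.55 ± 0.08 SE, adjusted p = 0.0212), fell short of both limits for a call, which were an adjusted p under 0.01 and a fold change over 1.5 in edgeR's quasi-likelihood test. In 2i/LIF the −N libraries, at 63.0 to 76.8 CPM, lay within the range of their controls, at 61.3 to 78.7 CPM (log2 −0.05 ± 0.21). Esrrb, whose reads from the transgene and from the knocked-out locus cannot be told apart, was at 279 and 362 CPM in control and at 222 and 264 CPM in −N, a difference that did not pass (log2 −0.40 ± 0.13, adjusted p = 0.156).

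The 4 libraries held between 38853062 and 45443379 counts, with 2.29% to 2.50% of them in mitochondrial genes. Markers of ESCs were abundant in all 4, Pou5f1 at 1101 to 1416 CPM and Dppa5a at 1096 to 1624 CPM. Within each FCS/LIF state the 2 replicates lay further apart than counting error allows (chi-square over its degrees of freedom, 4.54 to 17.0). The libraries of 1 state were therefore kept as separate replicates.

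Of 15636 genes tested, 27 were called, which is 0.173% of them, 12 higher (0.0767%) and 15 lower (0.0959%). The 15 genes that fell did so by 1.599- to 7.05-fold (median 2.17-fold), and the 12 that rose did so by 1.76- to 4.59-fold (median 1.90-fold). The median over all genes was log2 −0.01. Among the 27, 26 are protein coding and 1, H19, is a long non-coding RNA. How firmly the 27 stand differs from gene to gene: leaving out each of the 4 libraries in turn left between 5 and 12 calls over all genes, and Steap3, Dpp4, Mest, Aass and Thbs1 were called in all 4 of those fits. With the 4 libraries fitted on their own no gene was called, although 1790 genes had an unadjusted p under 0.05 and 55 an adjusted p under 0.05, whereas DESeq2 called 264 genes, all 27 among them.

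**Figure D1:**
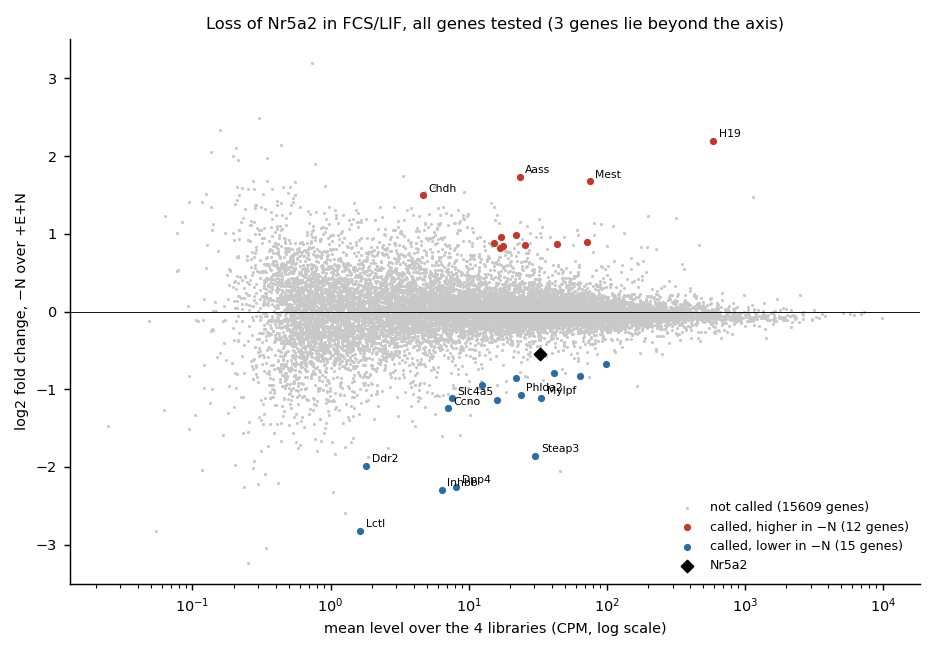
Each point is 1 of the 15636 genes tested, with its mean level over the 4 libraries in CPM on a log axis and its log2 fold change in −N over +E+N, FCS/LIF. The 12 called genes that rose are red, the 15 that fell are blue, those beyond 2-fold are named with 1 exception, Nr5a2 is the black diamond, and 3 genes beyond the axis at 3.5 are not drawn.

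The genes that fell are taken first, by what their products do. Membrane proteins and 1 secreted ligand had the largest falls. Steap3 (chr1:120190757-120272705), a ferrireductase of endosomes that serves the uptake of iron from transferrin, was at 49.8 and 45.7 CPM in control and at 12.3 and 14.1 CPM in −N. That is a fall of 3.62-fold (log2 −1.86 ± 0.08, adjusted p = 6.19e-05), the smallest adjusted p of the comparison. The 2 groups lay far apart compared with the gap between their own replicates, which the small adjusted p already reflects.

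Dpp4 (chr2:62330073-62412231), a peptidase of the cell surface also known as CD26, read 14.2 and 12.7 CPM in control and 2.97 and 2.68 CPM in −N, a 4.76-fold fall (log2 −2.25 ± 0.14, adjusted p = 0.000213). Lctl (chr9:64117147-64138118), a membrane protein of the klotho family, dropped from 2.99 and 2.76 CPM to 0.390 and 0.418 CPM (log2 −2.82 ± 0.24, adjusted p = 0.00272). It had the largest fold change of the called genes, and the lowest count behind any of them was its 16 counts in 1 of the −N libraries. Ddr2 (chr1:169972307-170110762), a receptor tyrosine kinase for collagen, was also a gene of low level, at 3.10 and 2.71 CPM in control and 0.780 and 0.682 CPM in −N (log2 −1.99 ± 0.22, adjusted p = 0.00735).

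Inhbb (chr1:119415465-119422248) encodes the beta-B subunit that dimerises into activin B or pairs with alpha into inhibin B, ligands that signal through Smad2 and Smad3. It fell from 12.03 and 9.24 CPM to 2.31 and 2.02 CPM (log2 −2.29 ± 0.24, adjusted p = 0.00623). Of the 23 tested genes of its pathway, ligands, receptors, Smads, antagonists and proteases, Inhbb was the only one called, and the median of the 23 was log2 0.13. Among ligands, Nodal read 64.3 and 68.4 CPM in control and 52.9 and 48.5 CPM in −N (log2 −0.39 ± 0.07, adjusted p = 0.0328). Lefty2, an antagonist and target of Nodal, went the other way, from 41.8 and 41.4 to 56.2 and 53.1 CPM (log2 0.39, adjusted p = 0.0370). Neither passed.

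Regulators and transporters followed with smaller falls. Slc4a5, a sodium bicarbonate cotransporter, was at 10.7 and 9.92 CPM in control against 4.70 and 4.80 CPM in −N (log2 −1.12 ± 0.13, adjusted p = 0.00766). Ccno, an atypical cyclin known from the formation of multiciliated cells, was at 11.0 and 8.98 CPM against 4.24 and 4.16 CPM (log2 −1.24 ± 0.15, adjusted p = 0.00912). Each was lower in both −N libraries than in either control library. Picking genes by this comparison favours that pattern, which 21.3% of all genes tested showed.

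Aes, a short member of the Groucho family of corepressors, fell by 1.78-fold, Slc29a3, a nucleoside transporter of lysosomes, by 1.73-fold, and Kifc3, a minus-end-directed kinesin, by 1.81-fold. Mylpf, the regulatory light chain of fast skeletal muscle myosin, fell by 2.16-fold, and Arl14epl by 1.92-fold. Ifitm3, a membrane protein with antiviral function that sits in the list of LIF and Stat3 pathway genes, fell by 1.599-fold, from 124 and 120 to 74.7 and 77.9 CPM. It has close paralogs whose reads the counting may have shared. It was the only one of 18 tested genes of that list to be called, and the median of the list was log2 0.00.

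Phlda2 (chr7:143501545-143503150), an imprinted gene whose product restrains growth of the placenta, read 37.5 and 27.3 CPM in control and 15.6 and 15.2 CPM in −N (log2 −1.07 ± 0.13, adjusted p = 0.00959). Of the called genes it had the highest adjusted p, and its control libraries were among the most spread. Just inside the limits on fold change stood Ifitm3, at log2 −0.68. Just outside them, with an adjusted p under 0.01 and a fold change under 1.5, were 4 genes, Ccnd1, Cenpm, Chchd10 and Ubxn2a, all of them lower in −N, of which only Ccnd1 was named by rule and the others after their values were seen. Ccnd1, the G1 cyclin D1 and a known target of Nr5a2 in other tissues, was at 137 and 135 CPM in control and 91.9 and 97.8 CPM in −N (log2 −0.52 ± 0.06, adjusted p = 0.00805).

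**Figure D2:**
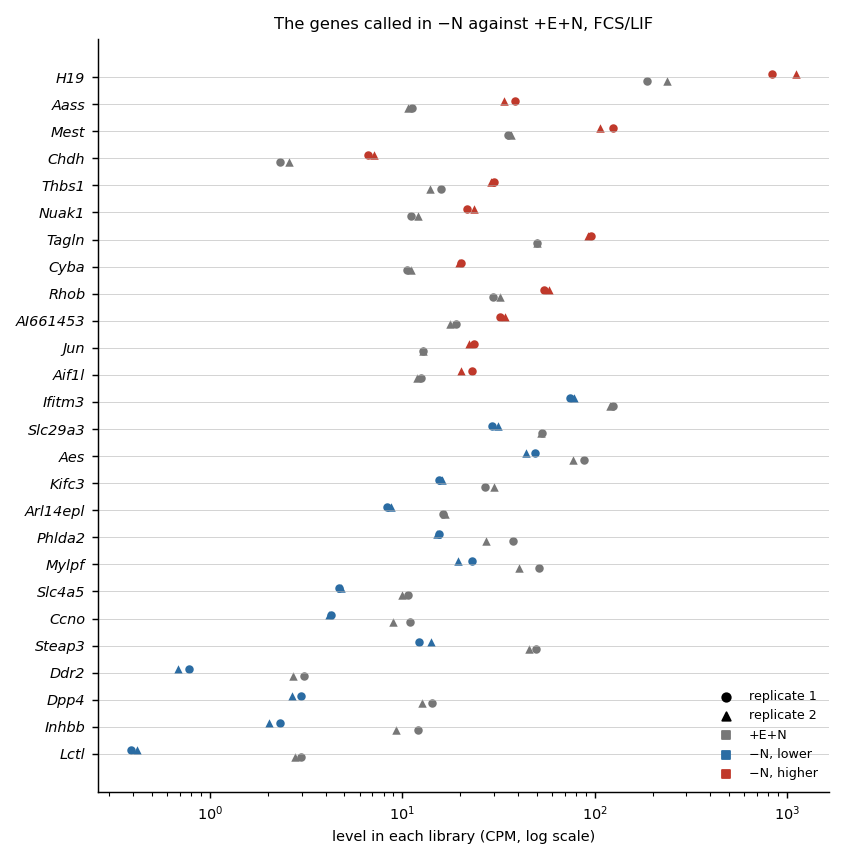
Each row is 1 of 26 of the 27 called genes and each point 1 library, with the level in CPM on a log axis: control in grey, −N in blue where the gene fell and in red where it rose, circles for replicate 1 and triangles for replicate 2. In every row the 2 −N points lie on 1 side of both control points, a pattern that picking genes by this comparison favours. Of all genes tested, 20.2% showed it upwards and 21.3% downwards.

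Among the genes that rose, imprinted and metabolic genes had the largest changes. H19 (chr7:142575529-142578143), a long non-coding RNA normally made from the maternal allele, read 187 and 238 CPM in control and 834 and 1116 CPM in −N, a 4.59-fold rise (log2 2.20 ± 0.22, adjusted p = 0.00480). Mest (chr6:30723547-30748465), which is normally made from the paternal allele, read 35.4 and 36.8 CPM in control and 124 and 106 CPM in −N, a 3.19-fold rise (log2 1.67 ± 0.09, adjusted p = 0.000139). Copg2, which shares 912 bases with Mest on the other strand, had a log2 of −0.03, and reads from such overlaps cannot be told apart where strand was not used in counting.

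Of 46 tested imprinted genes these 2 were called higher and Phlda2 lower. In 17 of the 46 both −N libraries lay above both controls and in 6 both lay below, beside 20.2% and 21.3% of all genes tested, and the median of the list was log2 0.11. Among those that did not pass, and named after their values were seen, Peg10 read 552 and 672 CPM in control and 1395 and 1993 CPM in −N (log2 1.47, adjusted p = 0.0224). Igf2, the paternally made neighbour of H19, read 298 and 363 CPM against 492 and 707 CPM (log2 0.86 ± 0.23, adjusted p = 0.100). Cdkn1c, a neighbour of Phlda2, read 92.2 and 100.0 CPM against 50.3 and 57.1 CPM (log2 −0.84 ± 0.15, adjusted p = 0.0361).

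Aass (chr6:23072173-23132986), which encodes the first enzyme of lysine breakdown in mitochondria, rose from 11.2 and 10.7 CPM to 38.6 and 33.9 CPM (log2 1.73 ± 0.10, adjusted p = 0.000213). Chdh (chr14:30009023-30040527), the mitochondrial enzyme that oxidises choline on the way to betaine, rose from 2.31 and 2.57 CPM to 6.68 and 7.11 CPM (log2 1.49 ± 0.17, adjusted p = 0.00753). Both genes were higher in each −N library than in either control, as were 20.2% of all genes tested, and being called favours this.

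A further group of those that rose act on the matrix, the actin cytoskeleton and stress signalling. Thbs1 (chr2:118111876-118127133), the matrix glycoprotein thrombospondin 1, was at 15.8 and 13.95 CPM in control and 30.1 and 28.9 CPM in −N (log2 0.99 ± 0.08, adjusted p = 0.00158). Tagln (chr9:45929619-45936058), an actin-binding protein of smooth muscle, was at 50.2 and 50.5 CPM against 95.4 and 92.0 CPM (log2 0.90 ± 0.10, adjusted p = 0.00753). Jun (chr4:95049034-95052222), a subunit of the AP-1 factor, was at 12.8 CPM in both control libraries against 23.6 and 22.2 CPM (log2 0.84 ± 0.08, adjusted p = 0.00334). The replicates of these 3 genes lay close together compared with the distance between the groups, which is what the test behind the calls weighs.

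Rhob, a small GTPase that organises actin and endosomes, rose by 1.82-fold, Aif1l, an actin-binding protein, by 1.76-fold, and Nuak1, a kinase related to AMPK, by 1.95-fold. Cyba, a subunit of the NADPH oxidase, rose by 1.84-fold and AI661453 by 1.81-fold. Of the 17 tested immediate early and heat shock genes Jun alone was called, and the median of that list was log2 0.12. Tested genes that overlap a called gene lie at 5 of the 27, Cyba, Kifc3, Lctl, Mest and Tagln, each on the other strand, and none of these neighbours was called.

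The −E and −E−N libraries asked whether the 27 genes also differed by Nr5a2 in cells that had lost Esrrb. They share no library with the comparison above, but both comparisons come from 1 fit with 1 estimate of the spread. Between −E−N and −E, 790 of 15636 genes were called, or 5.05%. All 27 genes had the sign they had with Esrrb present, and 24 were called the same way, which is 88.9% of the 27 and 3.04% of the 790. By direction these were 12 of the 15 that fell, where 1.53% of all genes were called lower, and 12 of the 12 that rose, where 3.52% were called higher. For each of the 27, both −E−N libraries lay beyond both −E libraries, which held for 34.4% of all genes downwards and 36.0% upwards.

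Mest read 39.9 and 45.0 CPM in −E and 149 and 143 CPM in −E−N (log2 1.78 ± 0.09, adjusted p = 4.88e-05). Dpp4 read 11.2 and 11.1 CPM in −E and 2.08 and 1.79 CPM in −E−N (log2 −2.53 ± 0.14, adjusted p = 5.90e-05). Thbs1 read 44.2 and 47.4 CPM in −E and 107 and 106 CPM in −E−N (log2 1.22 ± 0.07, adjusted p = 5.90e-05). For these 3 the interaction of the 2 losses did not pass (adjusted p 0.835, 0.712 and 0.568).

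The 3 that were not called without Esrrb were Inhbb, Phlda2 and Slc29a3. Inhbb was already at 1.83 and 1.69 CPM in −E and was at 0.586 and 1.11 CPM in −E−N (log2 −1.05 ± 0.29, adjusted p = 0.0355). Slc29a3 likewise stood at 10.2 and 9.03 CPM in −E, below the 29.3 and 31.6 CPM of −N, and at 7.56 and 9.01 CPM in −E−N (log2 −0.21 ± 0.11, adjusted p = 0.192). Phlda2 stood at 42.3 and 43.2 CPM in −E and 34.6 and 35.3 CPM in −E−N (log2 −0.29 ± 0.12, adjusted p = 0.130).

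Whether the effect of Nr5a2 depended on Esrrb was tested as an interaction of the 2 losses. None of the 27 genes was called (adjusted p 0.140 to 0.999, log2 −1.12 to 1.24), beside 5 of 15636 over all genes, or 0.0320%, with 1384 at an unadjusted p under 0.05. The test includes the libraries by which the 27 were picked, so their tally cannot be weighed against that of all genes. With 2 libraries a state the lack of a call does not show that the effects were equal. For Slc29a3 the interaction was log2 0.58 (adjusted p = 0.281), for Phlda2 0.78 (adjusted p = 0.247) and for Inhbb 1.24 (adjusted p = 0.368), so the loss of these calls without Esrrb is not itself a difference that passed. The 5 genes called, named after their values were seen, were Chchd10, Enox1, Jam2, Nr0b1 and Zfp42. In each the fall on loss of Nr5a2 was deeper without Esrrb. Whether these calls stood depended on single libraries, although all 5 kept their sign when 1 was left out. Nr0b1, which encodes Dax1, a receptor without a DNA-binding domain and a partner of Nr5a2, read 54.4 and 49.8 CPM in +E+N, 41.1 and 32.4 CPM in −N, 9.08 and 7.38 CPM in −E and 0.878 and 0.881 CPM in −E−N. Zfp42, the pluripotency marker Rex1, read 534 and 486 CPM, 425 and 383 CPM, 161 and 138 CPM, and 46.3 and 47.9 CPM in the same order (interaction log2 −1.33, adjusted p = 0.00572).

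Loss of Esrrb alone is a comparison that shares the +E+N libraries with the main one, so its values are only set beside it. Of all genes tested, 3.23% passed as higher in −E and 2.53% as lower. Steap3 rose to 70.2 and 73.1 CPM in −E (log2 0.59 ± 0.08, adjusted p = 0.00122) and Ccno to 20.2 and 23.1 CPM (log2 1.12 ± 0.14, adjusted p = 0.000897), whereas both fell in −N. Inhbb fell in −E (log2 −2.59 ± 0.25, adjusted p = 0.000210), as it did in −N. Tagln rose in −E to 141 and 178 CPM and Thbs1 to 44.2 and 47.4 CPM, above their levels in −N. Mest, at 39.9 and 45.0 CPM (log2 0.23 ± 0.09, adjusted p = 0.101), and Dpp4, at 11.2 and 11.1 CPM (log2 −0.27 ± 0.12, adjusted p = 0.158), did not pass in −E. Set directly against each other, −N was lower than −E for Steap3 (log2 −2.44, adjusted p = 1.92e-06) and Ccno (log2 −2.36, adjusted p = 4.95e-05) and higher for Mest (log2 1.44, adjusted p = 4.60e-05), in a contrast added after the data were seen that called 1.69% of all genes higher and 2.72% lower in −N.

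**Figure D3:**
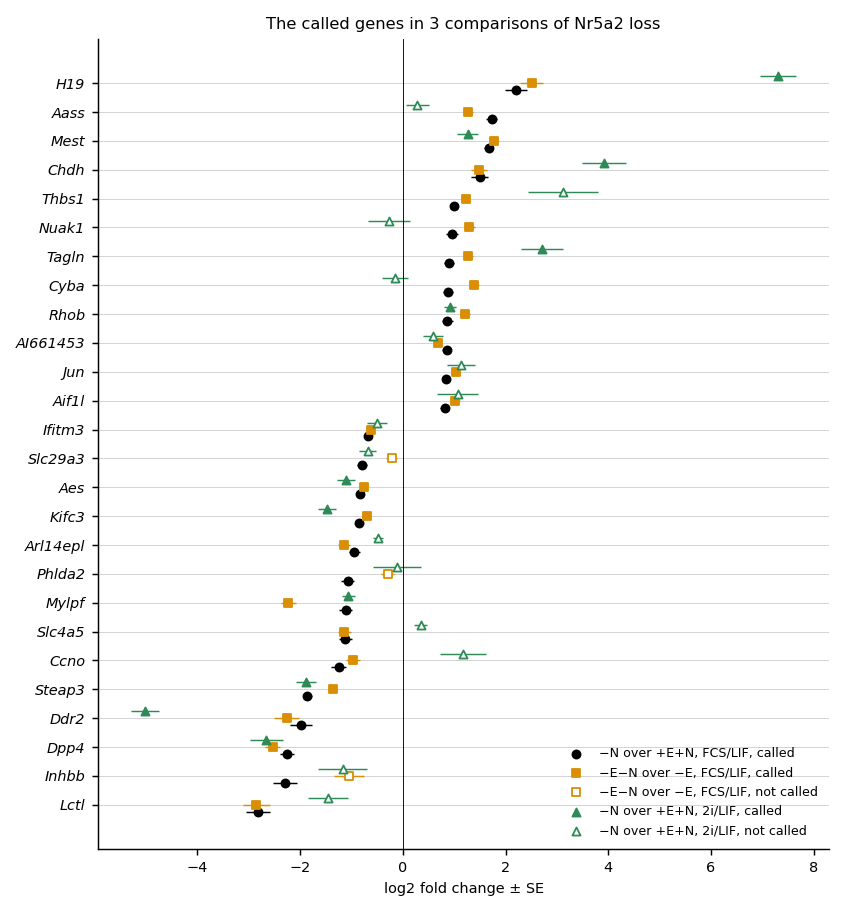
Log2 fold change with its SE (horizontal bars) for 26 of the 27 genes in 3 comparisons of Nr5a2 loss: with Esrrb in FCS/LIF (circles), without Esrrb in FCS/LIF (squares) and with Esrrb in 2i/LIF (triangles); filled symbols were called. The squares lie on the same side of 0 as the circles in all 26 rows, and the triangles on the other side in 4, Ccno, Slc4a5, Cyba and Nuak1.

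The 3 control and 3 −N libraries of 2i/LIF asked the same question in another medium, in a fit of their own. There 524 of 14355 genes were called, or 3.65%. Of the 27, 11 were called in the same direction, which is 40.7% of the 27 and 2.10% of the 524, and none in the other. These were 6 of the 15 that fell, beside 2.04% of all genes called lower, and 5 of the 12 that rose, beside 1.61% called higher. The 11 are Dpp4, Ddr2, Steap3, Mylpf, Kifc3 and Aes, which fell, and Rhob, Tagln, Chdh, Mest and H19, which rose. They are the genes called the same way in all 3 comparisons. Tagln was near the floor in 2i/LIF, with 7, 3 and 5 counts in the controls and 94 in the −N libraries together.

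In 2i/LIF Steap3 lay between 56.4 and 98.4 CPM in control and between 15.8 and 27.1 CPM in −N (log2 −1.88 ± 0.20, adjusted p = 0.000102), close to its change in FCS/LIF. Dpp4 lay between 64.6 and 97.4 CPM in control and between 6.97 and 20.8 CPM in −N (log2 −2.66 ± 0.32, adjusted p = 0.000325). Mest lay between 23.2 and 39.2 CPM in control and between 71.9 and 83.2 CPM in −N (log2 1.27 ± 0.21, adjusted p = 0.00221). For these 3 the test of the difference between media did not pass (adjusted p 0.981, 0.752 and 0.527).

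In 4 of the 27 the response differed between media, against 0.743% of all genes tested. That test includes the libraries by which the 27 were picked, so their share cannot be weighed against that of all genes. For 1 of these 4 genes, Ddr2, the difference was positive, as called for 0.409% of all genes, and for 3 negative, as called for 0.334%. H19 was at 1.21 to 1.97 CPM in the 2i/LIF controls and at 229 to 265 CPM in −N, so that its rise was larger there (log2 7.30 ± 0.35 against 2.20; adjusted p of the difference 1.28e-05). Ddr2 went from 18.9 to 28.7 CPM in control down to 0.498 to 0.908 CPM in −N, a deeper fall than in FCS/LIF (log2 −5.02 ± 0.27 against −1.99; adjusted p of the difference 0.000369). Slc4a5, which fell in FCS/LIF, was at 44.2 to 55.0 CPM in the 2i/LIF controls and at 53.5 to 70.6 CPM in −N (log2 0.35 ± 0.13, adjusted p of the difference 0.000738).

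Chdh had 2, 1 and 1 counts in the 3 controls of 2i/LIF and 62 in the 3 −N libraries together, a ratio of 16.5 (95% exact interval 6.12 to 62.3, counting error only). The fitted difference between media (adjusted p = 0.00904) depends at such counts on the prior count that edgeR adds. Of the named genes with opposite signs that were not called for it, Ccno had an adjusted p of the difference of 0.0188, Cyba of 0.127 and Nuak1 of 0.213, none past the threshold. Aass, one of the firmest rises in FCS/LIF, was at 9.25 to 10.9 CPM in the 2i/LIF controls and 11.4 to 12.8 CPM in −N (log2 0.28 ± 0.23, adjusted p of the difference 0.0154), which did not pass either.

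**Figure D4:**
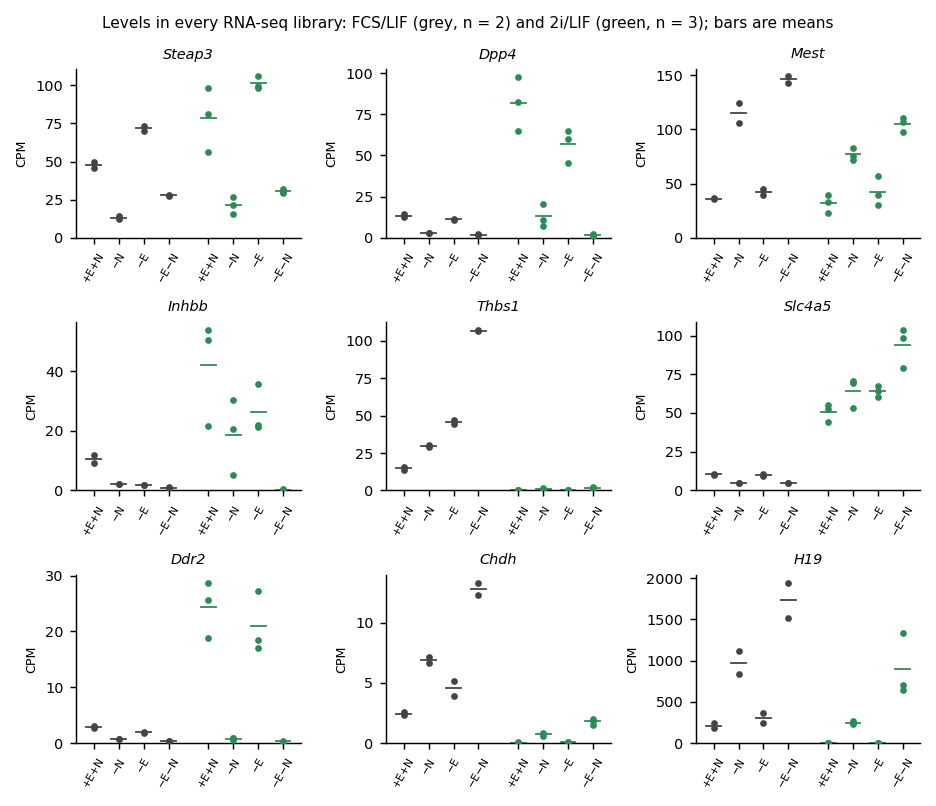
CPM of 9 of the called genes in all 20 RNA-seq libraries, each point 1 library and each bar the mean of a state, with FCS/LIF in grey (n = 2) and 2i/LIF in green (n = 3) and a linear axis from 0. Steap3, Dpp4 and Mest differ by Nr5a2 in the same way in every pair of states, while Slc4a5 is lower without Nr5a2 in FCS/LIF only.

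Of the 8 pluripotency genes examined, none was called in FCS/LIF, although all 8 had a negative log2 fold change (median −0.30, beside −0.01 over all genes). In 7 of them both −N libraries lay below both controls, which held for 21.3% of all genes tested. Tbx3, a T-box factor of the naive network, read 43.5 and 58.8 CPM in control and 25.9 and 33.8 CPM in −N (log2 −0.78 ± 0.17, adjusted p = 0.0595), and it was called lower in 3 of 14 alternatives, DESeq2 among them. Nanog read 295 and 241 CPM in control and 192 and 190 CPM in −N (log2 −0.48 ± 0.11, adjusted p = 0.0645). Tfcp2l1 read 126 and 142 CPM against 101 and 109 CPM (log2 −0.35 ± 0.07, adjusted p = 0.0397). Pou5f1, Sox2, Klf4 and Zfp42 had log2 values from −0.34 to −0.18, and Utf1, whose groups overlapped, had −0.12.

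A further list of 20 naive pluripotency genes showed the same picture, with none called, 19 of 20 lower in both −N libraries than in both controls (21.3% of all genes), and a median of log2 −0.25. Klf2, a Krüppel-like factor of the naive state, read 140 and 125 CPM in control and 94.0 and 94.6 CPM in −N (log2 −0.49, adjusted p = 0.0205). Fbxo15, an F-box protein used as an ESC marker, read 218 and 206 CPM against 166 and 161 CPM (log2 −0.38, adjusted p = 0.0146). Dppa3, named after its value was seen, was the exception, at log2 0.09. The 20 formative and primed epiblast genes had no call and a median of log2 −0.07.

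Markers of other cell types were read in the same 4 libraries. Of 18 trophectoderm markers none was called, but 16 lay higher in both −N libraries than in both controls (20.2% of all genes), with a median of log2 1.04. Gata2 read 9.66 and 9.62 CPM in control and 19.5 and 25.9 CPM in −N (log2 1.24, adjusted p = 0.0204). Krt7 read 45.5 and 56.1 CPM against 99.0 and 125 CPM (log2 1.14, adjusted p = 0.0379). Rhox9 read 53.7 and 60.3 CPM against 107 and 141 CPM (log2 1.12, adjusted p = 0.0342). The exceptions, named after their values were seen, were Tfap2a, lower at log2 −0.58, and Cdh3, whose groups overlapped.

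The summed level of the 18 trophectoderm markers was 838 and 932 CPM in control and 1391 and 1796 CPM in −N, and none of the 18 was at 0. In −E−N against −E, 14 of the 18 were called higher, beside 3.52% of all genes. Most of these markers, and the called imprinted genes H19 and Mest, were higher in −N. Whether they are related was not tested, nor was the markers' part in any called difference. In bulk samples more cells of a type and more RNA per cell cannot be told apart.

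By their medians the other marker lists differed less. The 20 primitive endoderm markers summed to 1120 and 1216 CPM in control and 1113 and 1219 CPM in −N, with Ttr at 0 in all 4 libraries. Of its 18 tested members 12 lay lower in both −N libraries, beside 21.3% of all genes, and the median was log2 −0.47. Mesoderm and primitive streak markers summed to 27.2 and 30.8 CPM in control against 45.4 and 54.0 CPM, with 11 of 16 under 1 CPM in all 4 libraries. Neural markers summed to 178 and 176 CPM against 191 and 206 CPM, and fibroblast and feeder markers to 31.9 and 37.99 CPM against 36.6 and 40.7 CPM. No member of these lists was called.

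Genes of the 2-cell stage, which are on in a small share of ESCs at a time, had the lowest median of all lists, log2 −0.73 over 14 tested genes, with 10 lower in both −N libraries (21.3% of all genes) and none called. A filter of at least 1 count in all libraries together called 7 of 15 of them lower, and DESeq2 called 1. Zscan4a read 5.89 and 9.62 CPM in control and 3.97 and 3.37 CPM in −N (log2 −1.09, adjusted p = 0.122), so its 2 control libraries differed by more than the −N libraries did from the nearer of them. In 2i/LIF the same list had a median of log2 2.30 over 12 tested genes and 3 of them were called higher, beside 1.61% of all genes. The list of subcortical maternal complex genes, proteins of the egg, also counts Dppa5a, given above as an ESC marker. Of the 6 tested genes of this list none was called. Its Khdc3 read 18.6 and 15.9 CPM in control and 4.97 and 2.68 CPM in −N (log2 −2.18, adjusted p = 0.0106), and it was called lower in 7 of 14 alternatives.

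The Nr5a2-regulated genes known from liver and steroid-forming tissues were in part too low to test. Of 20 such genes 9 passed the filter on low counts, none was called, and their median was log2 −0.09. Among receptors and partners of the NR5A and ESRR families, 11 of 15 passed the filter and none was called. Nr2f2, a nuclear receptor whose own binding letters resemble those of Nr5a2 in part, had the largest difference of that list, from 0.727 and 0.731 CPM to 1.27 and 2.18 CPM (log2 1.24, adjusted p = 0.101).

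Lists of signalling and metabolism held few calls. The Wnt pathway (25 tested genes, median log2 0.01), the Fgf and Erk pathway (22 genes, 0.05), and the Bmp pathway and Id genes (19 genes, 0.12) had none. In the Bmp list 8 of 19 lay higher in both −N libraries and none lower, beside 20.2% and 21.3% of all genes, Bmp8b among them at 5.41 and 5.61 CPM against 9.79 and 12.4 CPM (log2 1.01, adjusted p = 0.0367). Notum, a secreted enzyme that inactivates Wnt proteins, read 35.5 and 32.5 CPM in control and 20.5 and 17.4 CPM in −N (log2 −0.84, adjusted p = 0.0264). The 23 genes of cholesterol synthesis and uptake had a median of log2 0.10, with 11 higher in both −N libraries and none lower, beside the same 20.2% and 21.3%, and none of them called.

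Glycolysis and lactate genes (21 tested, median log2 −0.01), p53 targets (20, 0.00), interferon response genes (12, 0.00), DNA methylation and imprint protection genes (15, −0.05) and germline and meiosis genes (17, −0.31) likewise had no call. Zfp57, which protects imprints by binding methylated control regions, was at 236 and 243 CPM in control and 186 and 180 CPM in −N (log2 −0.39, adjusted p = 0.0121). Dnmt3b, a methyltransferase that sets new methylation, was at 654 and 614 CPM against 746 and 743 CPM (log2 0.23, adjusted p = 0.0698). Neither passed.

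**Figure D5:**
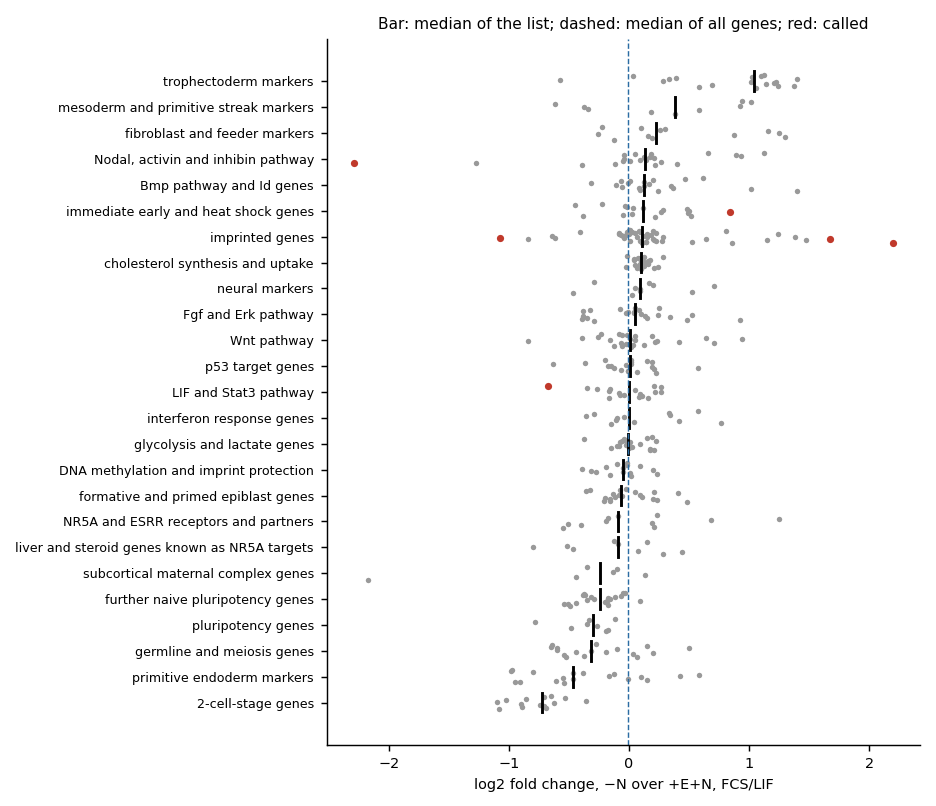
Log2 fold change in −N over +E+N, FCS/LIF, of each tested gene (points) in 25 gene lists, ordered by the list's median (black bar). Called genes are red, the dashed line is the median of all genes at −0.01, and the lists reach from −0.73 for the 2-cell-stage genes to 1.04 for the trophectoderm markers.

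The start sites of the called genes were searched for the letters that Nr5a2 prefers. Windows from 250 bases before to 50 after the start, from RefSeq on GRCm38.p6, were at hand for 20 of the 27 genes, 27 windows in all. Those not matched included Aes, Arl14epl, H19, Kifc3, Tagln and Thbs1. The full TCAAGGNCA, read on both strands with N any base, lay in none of the 27 windows, and in 532 of all 32851 windows, or 1.62%. The shorter CAAGGNCA, which lies within it, was found in 3 of the 27 windows (11.1%), those of Steap3, Chdh and Aif1l, against 6.71% of all windows, and each time as CAAGGCCA, which 2.40% of all windows hold. A window without a match says only that these letters are not there.

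The stretches around the match are shown for Steap3, which fell, and Chdh, which rose, as 2 of the genes called in all 3 comparisons, with the match in capitals, 5′ to 3′ on the gene's strand. The match begins 218 bases before a RefSeq start of Steap3 (chr1:120270431-120270520, minus strand) and 234 bases before a RefSeq start of Chdh (chr14:30022383-30022456, plus strand). Both starts lie inside the gene spans given above and not at their upstream ends.
Steap3: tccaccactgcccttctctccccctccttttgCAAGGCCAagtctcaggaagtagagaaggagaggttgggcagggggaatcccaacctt
Chdh: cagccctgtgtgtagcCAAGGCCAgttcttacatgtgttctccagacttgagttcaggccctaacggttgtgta
In Aif1l the match lies after the start site. The same letters stood at 1 gene that fell and at 2 that rose.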

How the data were processed

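RNA-seq libraries were made from RNA of EKOiE and EKOiE NrKO ESCs, and the study describes them as poly-A selected and stranded. The authors deposited expected counts and TPM per gene, made with STAR and RSEM on mm10; Bowtie2 is also named in the submitters' processing notes. Versions and the strand setting of the counting are not given in the sources used here. The deposited expected counts were whole numbers, and the 92 rows of spike-in controls were left out. The deposited TPM served 2 alternatives.

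A gene entered a fit where every replicate of some state held 20 counts or more. Tests used edgeR 4.0.16 (R 4.3.3) by the quasi-likelihood test with TMM scaling, over the 8 FCS/LIF libraries in 1 fit, over the 2i/LIF libraries in another, and over all 20 for the difference between media. Calls needed a Benjamini-Hochberg adjusted p under 0.01 and, except for the 2 tests of a difference between effects, a fold change over 1.5. Fold changes are given as log2 ± SE. The SE is the absolute log2 fold change over the square root of the test's F value, so it is approximate at low counts. The script was tested on simulated data.

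The alternatives used DESeq2 1.42.0, limma 3.58.1, other filters, other limits, a replicate block and each library left out in turn. Named were the targeted genes, every called gene but 1 that is not reported here, the pluripotency genes the study plotted, and the 3 members of each list with the smallest p. The members and lists were chosen with earlier results of these data known. Promoter windows came from RefSeq on GRCm38.p6 and the annotation from GENCODE. Intervals cover counting error only.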

Additional observations from a re-analysis of the deposited data

Results flagged for a closer look

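In 4 of the called genes the response to loss of Nr5a2 differed between FCS/LIF and 2i/LIF by edgeR's test of the difference itself (FCS/LIF minus 2i/LIF, on the log2 scale). The difference was −5.09 for H19 (adjusted p = 1.28e-05), whose rise was larger in 2i/LIF, and 3.05 for Ddr2 (adjusted p = 0.000369), whose fall was deeper there. It was −2.43 for Chdh (adjusted p = 0.00904), which rose in both media, and −1.45 for Slc4a5 (adjusted p = 0.000738), which fell in FCS/LIF and was not called in 2i/LIF. The states held 2 libraries each in FCS/LIF and 3 in 2i/LIF.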

How the results depend on the processing

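All 27 genes kept the direction of their difference under each of the alternatives run, and no result reversed. The number of genes called in −N against +E+N depended strongly on the setting, at 264 with DESeq2, 548 with a filter of at least 1 count in all libraries together, 193 at an adjusted p under 0.05, 17 with all 20 libraries in 1 fit, 9 and 7 with limma on log2(TPM + 1) and log2(TPM + 0.1), and 0 with the 4 libraries alone (lowest adjusted p 0.011). Limma on log2(TPM + 1) called 6 of the 27 themselves. Leaving out 1 library called 5 genes (without +E+N replicate 1) to 12 (without −N replicate 2), and of the 27 themselves 5 to 8.

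For −E−N against −E the count was 1571 with the filter of at least 1 count, 1511 at an adjusted p under 0.05, 1258 with no fold change limit, and 84 (without −E replicate 1) to 616 with 1 library left out. For 2i/LIF it was 860 with DESeq2, 828 with the low filter, 980 at an adjusted p under 0.05, and 243 to 442 with 1 library left out, lowest without −N replicate 2. For the difference between media it was 456, 809 and 47 to 126 with DESeq2, the low filter and 1 library left out, and for the interaction 63, 242 and 0 to 9. The cause was not tested.

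With the replicate number as a block the counts were 305 for −N against +E+N, 1265 for −E−N against −E, 1115 for 2i/LIF, 686 for the difference between media and 40 for the interaction. All 27 were among the 305, and 10 trophectoderm markers were called higher under it, as were 4 with DESeq2 and 11 with the low filter. DESeq2, the low filter and the block each called Tbx3 and Khdc3 lower. They called 6, 8 and 7 imprinted genes higher and 2, 3 and 2 lower. In the Nodal list they called 2, 4 and 2 genes higher, in the Wnt list 1, 2 and 1 higher and 1 lower each, and in the Bmp list 1 higher each. The low filter also called 2 receptors and partners, 2 mesoderm markers and 1 fibroblast marker higher and 2 primitive endoderm markers lower, and the block called 1 primitive endoderm and 1 mesoderm marker higher. The labels do not say what a number shares; over 15636 genes the deviations of same-numbered +E+N and −N libraries correlated at 0.484.

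With 2 libraries a state, small changes cannot be told from the spread, and a gene not called is not shown to be the same.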

Other observations

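Tested genes of chromosome 8 had the highest median of all chromosomes in −N against +E+N in FCS/LIF, log2 0.04 over 823 genes, with 59.4% of them above 0 beside 47.0% of all genes. Their median was 0.06 in −E−N against −E and 0.06 in 2i/LIF. Of the other chromosomes, leaving out Y with 3 tested genes, the medians lay between −0.04 and 0.01 in FCS/LIF.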
